A study of Homo sapiens with 12 samples.

Results

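The Krüppel-like factors (KLFs) measured here were KLF2, KLF3, KLF4, KLF5, KLF6, KLF7, KLF9, KLF10, KLF11 and KLF13, 10 of the 18 KLF genes and of the 19901 protein-coding genes in the table of RNA-Seq read counts. They were chosen by symbol, with earlier results of these data known. All 10 passed the filter on low counts (10 or more counts in 6 or more libraries), as did 13093 genes in all. The cells were HCT116, a human colorectal carcinoma line, with endogenous KAP1 (encoded by TRIM28) fused to a degron tag, in the clone labelled CloneD5, so that every library, controls included, came from 1 clone carrying tagged KAP1. All cells were kept in serum-free medium for 48 h and given the degrader ligand dTAG or its solvent DMSO 8 h before serum. DMSO-S0 received DMSO and no serum, DMSO-S30 received DMSO and then 30 min of serum, dTAG-S0 received dTAG and no serum, and dTAG-S30 received dTAG and then 30 min of serum, with 3 libraries in each group. The comparisons ask how KLF transcripts respond to serum and whether the response differs once KAP1 has been depleted.

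KLFs are DNA-binding proteins with a carboxy-terminal run of zinc fingers that recognise GC-rich elements and CACCC boxes, which they share with the related SP factors. Outside the zinc fingers they differ, and some members mainly activate transcription while others recruit the co-repressors CTBP or SIN3. Several KLF genes are immediate early genes (IEGs), which respond to growth factors without new protein synthesis, and in the intestinal epithelium KLF5 is known from dividing crypt cells and KLF4 from differentiated cells.

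RefSeq promoters (GRCh38.p14), windows of 300 bases from 250 before to 50 after each start, were found for 8 of the 10 members, with 13 windows in all. KLF3 and KLF10 had no entry. The stretches below run 5′ to 3′ along each gene's own strand. Capitals mark the MEF2 element of KLF2 (chr19:16324676-16324825, plus strand), the reverse complement of the CRE core TGACG, found at 2 places, in KLF4 (chr9:107489920-107490019, minus strand) and the CArG box, the element bound by SRF, of KLF7 (chr2:207167259-207167348, minus strand). They also mark the CRE TGACGTCA of KLF11 (chr2:10044005-10044092, plus strand) and the GC box GGGCGGG of KLF6 (chr10:3785210-3785459, minus strand), whose window held none of the other elements searched. KLF2, KLF4 and KLF6 are shown because they rose most with serum, and KLF7 because it was the member with a CArG box. KLF11 is shown because it was the member with a whole CRE and, in DMSO-treated cells, the lowest serum response.
KLF2: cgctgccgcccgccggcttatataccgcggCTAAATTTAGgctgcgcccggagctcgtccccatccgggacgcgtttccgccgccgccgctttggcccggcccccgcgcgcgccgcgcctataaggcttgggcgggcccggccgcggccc
KLF4: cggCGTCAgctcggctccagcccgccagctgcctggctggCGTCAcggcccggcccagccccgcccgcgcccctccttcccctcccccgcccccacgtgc
KLF7: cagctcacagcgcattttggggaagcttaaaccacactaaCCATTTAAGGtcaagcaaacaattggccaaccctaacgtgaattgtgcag
KLF11: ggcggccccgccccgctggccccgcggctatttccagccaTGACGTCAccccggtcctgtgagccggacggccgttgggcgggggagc
KLF6: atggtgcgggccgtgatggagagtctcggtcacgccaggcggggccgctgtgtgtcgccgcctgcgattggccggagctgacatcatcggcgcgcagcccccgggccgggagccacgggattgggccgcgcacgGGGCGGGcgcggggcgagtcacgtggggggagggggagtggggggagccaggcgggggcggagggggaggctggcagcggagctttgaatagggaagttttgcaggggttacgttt

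The motifs were searched on both strands of 35116 promoter windows, and the CRE includes the CRE core. A MEF2 element was present in 0.572% of windows, a CArG box in 1.29%, a CRE in 1.85%, the CRE core in 24.6%, the GC box in 33.1% and CACCC in 59.9%. The AP-1 element TGANTCA was in 7.71% of all windows and in none of the 13 member windows. The window of KLF9 held none of the motifs searched. The MEF2 element of KLF2 began 120 bases before the start. The CArG box of KLF7 began 62 bases before the start at chr2:207167246, and the CRE of KLF11 began 176 bases before that at chr2:10044221. KLF5, KLF7 and KLF11 had several windows, so a share per window is not a share per gene. The stretches shown for KLF4 and KLF11 lie wholly inside their counted gene spans. The MEF2 element was added to the search after the promoter sequences had been seen, and a match describes letters in a window, not a bound site.

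The libraries held 20537682 to 26278707 counts, of which ERCC spike-in transcripts took 7.97% to 9.37%. TRIM28, whose protein is the one tagged, stood at 85.5 to 120.4 CPM over the libraries and differed between dTAG and DMSO by a log2 fold change of -0.06 without serum and -0.04 with serum (edgeR adjusted p = 0.789 and 0.888). The degron acts on the protein, so this transcript is no measure of KAP1 loss. All 7 epithelial markers were present in every library, led by KRT8 with 8193 to 13216 counts. With serum, 5 of the 7 rose in each treatment, where 9.15% of all genes rose in DMSO-treated and 9.04% in dTAG-treated cells. With other ways of scaling, 6 (TMM) and 4 (ERCC library sizes) were called in DMSO-treated cells. Of 8 markers of blood, endothelial and fibroblast cells, LUM was at 0 in all 12 libraries, COL1A2 reached 1 count, DCN 2, CD3E 7, PECAM1 10, PTPRC 35 and VWF 55. COL1A1, a fibrillar collagen gene, held 250 to 1789 counts and rose with serum by a log2 fold change of 2.48 in DMSO-treated and 2.47 in dTAG-treated cells. The 8 markers together held 348 to 370 counts in DMSO-S0, 1674 to 1885 in DMSO-S30, 309 to 419 in dTAG-S0 and 1524 to 1783 in dTAG-S30. The part of other cells in the KLF values was not tested, and in bulk RNA fewer cells of a type cannot be told from less RNA per cell. The study calls the 3 libraries of a group biological replicates, while the labels do not name separate cultures, and p-values measure the spread between these libraries.

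With 30 min of serum in DMSO-treated cells, 9 of the 10 KLF transcripts rose at an adjusted p under 0.05 in edgeR's quasi-likelihood test, where 9.15% of all genes tested rose. The rise was at least 2-fold for 5 members, KLF2, KLF6, KLF4, KLF5 and KLF10, against 2.18% of all genes. The median log2 fold change of the 10 members was 0.90, beside -0.07 for all genes. Since the members were chosen with earlier results of these data known, such shares describe them and do not test the family. For all 10 members every DMSO-S30 library lay above every DMSO-S0 library, which was so for 13.8% of all genes. Values below are CPM, read counts scaled to a common library size after upper-quartile scaling.

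**Figure D1:**
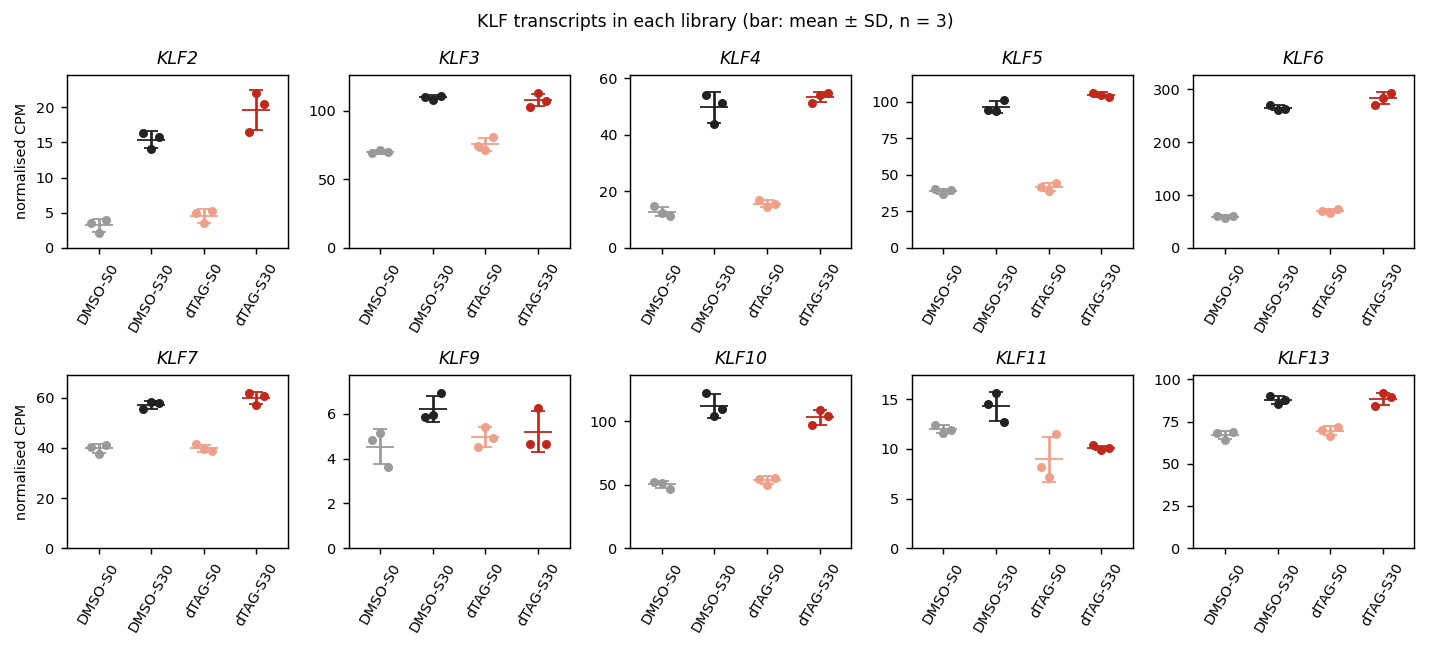
Normalised CPM (y axis, from 0) of the 10 KLF genes in each of the 12 libraries, by group (x axis), with points for libraries and bars for mean ± SD of 3. The S30 libraries lie above the S0 libraries of the same treatment for every member in DMSO, while KLF9 and KLF11 overlap between dTAG-S0 and dTAG-S30.

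Among the members known mainly as activators, KLF2 rose the most. KLF2 (ENSG00000127528.5, hg38 chr19:16324817-16327874, plus strand), which restrains proliferation and is best known from endothelium and T cells, stood at 3.50, 2.16 and 3.97 CPM in DMSO-S0 and 16.3, 14.1 and 15.7 CPM in DMSO-S30. The lowest library with serum was thus several times the highest without it. The log2 fold change was 2.30 (SE 0.18, 4.91-fold, adjusted p = 5.62e-11), and the level without serum rested on 47 to 81 counts a library. By size of rise, KLF2 ranked 84 among the 13093 genes.

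KLF4 (ENSG00000136826.14, hg38 chr9:107484852-107490482, minus strand), a factor of epithelial differentiation and growth arrest, stood at 14.7, 12.2 and 11.4 CPM in DMSO-S0 and 54.3, 43.7 and 51.2 CPM in DMSO-S30. The groups lay far apart, and DMSO-S30 replicate 2 was the lowest of the libraries with serum. Serum changed it by 1.98 on the log2 scale (SE 0.10, 3.95-fold, adjusted p = 6.66e-15). KLF5 (ENSG00000102554.13, hg38 chr13:73054976-73077542, plus strand), which promotes proliferation of intestinal epithelial cells, stood at 40.1, 36.7 and 39.3 CPM without serum and 94.1, 93.8 and 101 CPM with serum. Its libraries were tight within each group and the groups did not overlap. This was a log2 fold change of 1.33 (SE 0.07, 2.51-fold, adjusted p = 7.03e-15).

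KLF6 (ENSG00000067082.14, hg38 chr10:3775996-3785281, minus strand), an activator also studied as a tumour suppressor, stood at 60.4, 56.8 and 60.9 CPM in DMSO-S0 and 270.2, 261 and 263 CPM in DMSO-S30. Of the 10 members it had the highest CPM with serum, and the lowest adjusted p. It rose by 2.17 on the log2 scale (SE 0.06, 4.49-fold, adjusted p = 2.34e-20). KLF7 (ENSG00000118263.14, hg38 chr2:207074137-207167267, minus strand), an activator known from neurons and close to KLF6 in sequence, stood at 40.4, 37.7 and 41.1 CPM without serum and 55.5, 58.3 and 58.0 CPM with serum. The groups did not overlap, but the rise was far smaller than that of KLF6. The rise was 0.53 on the log2 scale (SE 0.07, 1.44-fold, adjusted p = 7.93e-07).

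Among the members that recruit co-repressors, KLF10 rose the most. KLF10 (ENSG00000155090.14, hg38 chr8:102648779-102655902, minus strand), a SIN3-binding repressor also known as an early gene of TGF-beta signalling, stood at 52.4, 51.6 and 46.8 CPM in DMSO-S0 and 122, 104 and 109.9 CPM in DMSO-S30. The libraries were more spread with serum than without, and the groups did not overlap. Its log2 fold change was 1.16 (SE 0.07, 2.23-fold, adjusted p = 1.08e-12). KLF3 (ENSG00000109787.12, hg38 chr4:38664196-38701042, plus strand), which represses through CTBP, stood at 69.1, 71.7 and 69.9 CPM without serum and 110.4, 108 and 111 CPM with serum. The libraries of each group were nearly alike, and the groups did not overlap. KLF3 thus rose by 0.65 on the log2 scale (SE 0.06, 1.57-fold, adjusted p = 3.76e-09).

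KLF13 (ENSG00000169926.10, hg38 chr15:31326855-31435665, plus strand), a SIN3-binding factor, stood at 68.4, 64.2 and 68.7 CPM in DMSO-S0 and 90.3, 85.2 and 87.9 CPM in DMSO-S30. It was the smallest of the called rises, with no overlap of the groups. The log2 fold change was 0.39 (SE 0.06, 1.31-fold, adjusted p = 2.22e-05). KLF9 (ENSG00000119138.4, hg38 chr9:70384597-70414624, minus strand), a SIN3-binding repressor known as a target of glucocorticoid and thyroid hormone receptors, stood at 4.82, 5.14 and 3.63 CPM without serum and 5.84, 5.95 and 6.91 CPM with serum. The gap between the groups was narrow, and replicate 3 was the extreme library of both. KLF9 rose by 0.50 on the log2 scale (SE 0.16, adjusted p = 0.022). Leaving out DMSO-S0 replicate 3 ended this call (0.35, adjusted p = 0.165), as did leaving out DMSO-S30 replicate 3 (0.43, adjusted p = 0.0985).

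KLF11 (ENSG00000172059.10, hg38 chr2:10042849-10054836, plus strand), the SIN3-binding paralog of KLF10, was the member that did not pass the test. It stood at 12.4, 11.6 and 11.9 CPM in DMSO-S0 and 14.5, 15.6 and 12.7 CPM in DMSO-S30. The libraries did not overlap, but DMSO-S30 replicate 3 lay close to the group without serum. The log2 fold change was 0.27 (95% interval 0.00 to 0.53, adjusted p = 0.131). It passed the test without the count filter (0.32, adjusted p = 0.0184), with 10 counts required in all 12 libraries (0.34, adjusted p = 0.0271) and without dTAG-S30 replicate 3 (0.33, adjusted p = 0.0486).

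In dTAG-treated cells serum raised 8 of the 10 members, against 9.04% of all genes. For these 8, every dTAG-S30 library lay above every dTAG-S0 library, which held for 12.6% of all genes. KLF2 stood at 4.89, 3.46 and 5.25 CPM in dTAG-S0 and 16.4, 22.0 and 20.4 CPM in dTAG-S30, and rose by 2.09 on the log2 scale (SE 0.16, adjusted p = 3.99e-11). KLF6 stood at 68.9, 65.4 and 72.9 CPM and then 271, 284 and 293 CPM, a log2 fold change of 2.03 (SE 0.06, adjusted p = 4.99e-20). These remained the members with the largest rises, and dTAG-S30 replicate 1 was the lowest library with serum for both. KLF4 stood at 17, 14.3 and 15.7 CPM without serum and 51.4, 54.1 and 54.8 CPM with it, a log2 fold change of 1.76 (SE 0.09, adjusted p = 2.04e-14). The other called rises were 1.32 for KLF5, 0.95 for KLF10, 0.58 for KLF7, 0.51 for KLF3 and 0.34 for KLF13 on the log2 scale.

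KLF9 and KLF11 did not pass the test in dTAG-treated cells. KLF9 stood at 4.51, 5.41 and 4.91 CPM in dTAG-S0 and 4.67, 6.26 and 4.67 CPM in dTAG-S30, and the fitted difference was 0.04 on the log2 scale (95% interval -0.28 to 0.36, adjusted p = 0.891). Its groups overlapped, and 1 library with serum stood above the rest. KLF11 stood at 8.18, 7.19 and 11.5 CPM without serum and 10.4, 9.93 and 10.1 CPM with serum, with a log2 fold change of 0.17 (95% interval -0.11 to 0.44, adjusted p = 0.392). The library that made its groups overlap was dTAG-S0 replicate 3, without which the log2 fold change was 0.40 (adjusted p = 0.0193). Without dTAG-S0 replicate 2 it was 0.02 (adjusted p = 0.935).

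**Figure D2:**
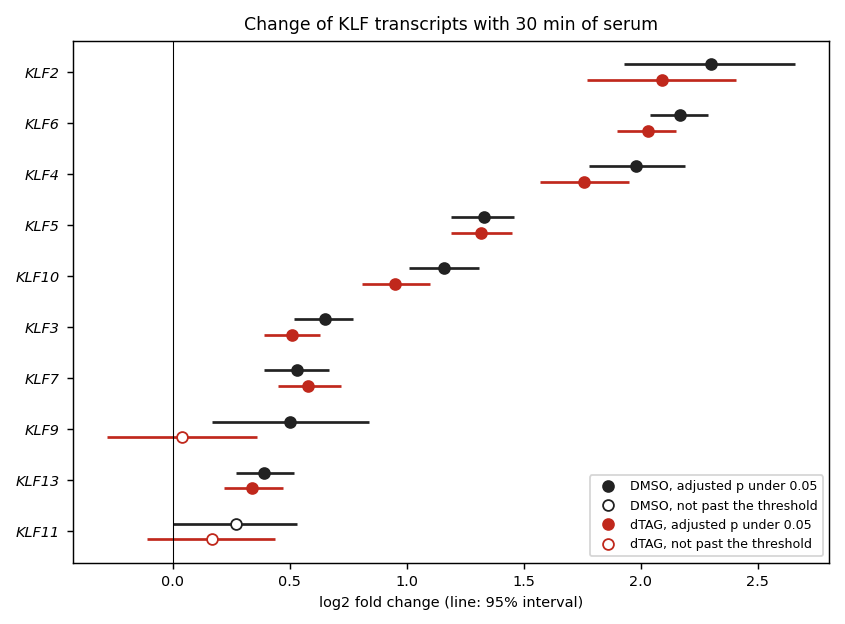
Log2 fold change with 30 min of serum (x axis) of the 10 KLF genes (y axis) in DMSO-treated and dTAG-treated cells, with 95% intervals as lines and filled points for an adjusted p under 0.05. KLF2, KLF6 and KLF4 lie furthest to the right in both treatments, and KLF9 and KLF11 are open in dTAG.

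The interaction, the serum effect in dTAG-treated cells minus that in DMSO-treated cells, passed edgeR's test for none of the members, and 0.0382% of all genes passed it. No member had an unadjusted p under 0.05, and DESeq2 and the likelihood ratio test also called 0 of 10. The interaction was below 0 for 9 of the 10 members, with KLF7 (0.06) the exception, and for 48.7% of all genes. Its median was -0.14 over the members beside 0.00 for all genes. The lowest values were -0.47 for KLF9 (95% interval -0.94 to 0.01), -0.22 for KLF4 (-0.51 to 0.07), -0.21 for KLF10 (-0.42 to 0.00) and -0.20 for KLF2 (-0.72 to 0.31). KLF6, with its tight libraries, had an interaction of -0.14 (-0.32 to 0.04), and KLF5 had -0.01 (-0.20 to 0.19). All 10 intervals included 0, which does not show that the responses were equal.

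For 8 of the 10 members both log2 fold changes with dTAG were smaller in size than both with serum. The exceptions were KLF11 (-0.41 and -0.51 with dTAG, 0.27 and 0.17 with serum) and KLF9 (0.16 and -0.31 with dTAG, 0.50 and 0.04 with serum). Without serum, edgeR called 0 of the 10 members, against 1.28% of all genes, and 4 members had an unadjusted p under 0.05, as did 11.5% of all genes. DESeq2 and the likelihood ratio test each called 1 member, KLF6. The log2 fold change was above 0 for 9 members and for 47.7% of all genes, with a median of 0.11 over the 10 beside -0.01 for all genes. The interaction takes in the same dTAG-S0 and DMSO-S0 libraries, so its count of signs is not independent of this one. KLF6 had a log2 fold change of 0.23 (95% interval 0.10 to 0.35, adjusted p = 0.0702), KLF2 of 0.53 (0.12 to 0.94, adjusted p = 0.262) and KLF4 of 0.31 (0.09 to 0.52, adjusted p = 0.195). Of these, KLF6 had every dTAG-S0 library above every DMSO-S0 library, which held for 8.50% of all genes, while the KLF2 and KLF4 libraries overlapped. KLF11 was the one member below 0, with a log2 fold change of -0.41 (-0.68 to -0.14, adjusted p = 0.166) and every dTAG-S0 library below every DMSO-S0 library, the nearest pair being 11.5 and 11.6 CPM. Such a gap below was seen for 9.23% of all genes. Leaving out 1 library gave 0.27 (without DMSO-S0 replicate 2) to 0.76 (without DMSO-S0 replicate 3) for KLF2 and -0.64 (without dTAG-S0 replicate 3) to -0.26 (without dTAG-S0 replicate 2) for KLF11.

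With serum, edgeR again called 0 of the 10 members between dTAG and DMSO, against 1.21% of all genes, and 2 members, KLF2 and KLF11, had an unadjusted p under 0.05, as did 10.4% of all genes. DESeq2 and the likelihood ratio test each called 1, KLF11. KLF11 had a log2 fold change of -0.51 (95% interval -0.78 to -0.24, adjusted p = 0.0516), just outside the threshold, and its dTAG-S30 libraries lay below all DMSO-S30 libraries, as for 8.10% of all genes. KLF2 had a log2 fold change of 0.32 (0.03 to 0.61, adjusted p = 0.386). KLF2, KLF5 and KLF6 each had all dTAG-S30 libraries above all DMSO-S30 libraries, a pattern seen for 7.62% of all genes. KLF9 had a log2 fold change of -0.31 (-0.63 to 0.02) and KLF10 of -0.12 (-0.26 to 0.03), and KLF3, KLF4, KLF7 and KLF13 lay between -0.03 and 0.09.

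**Figure D3:**
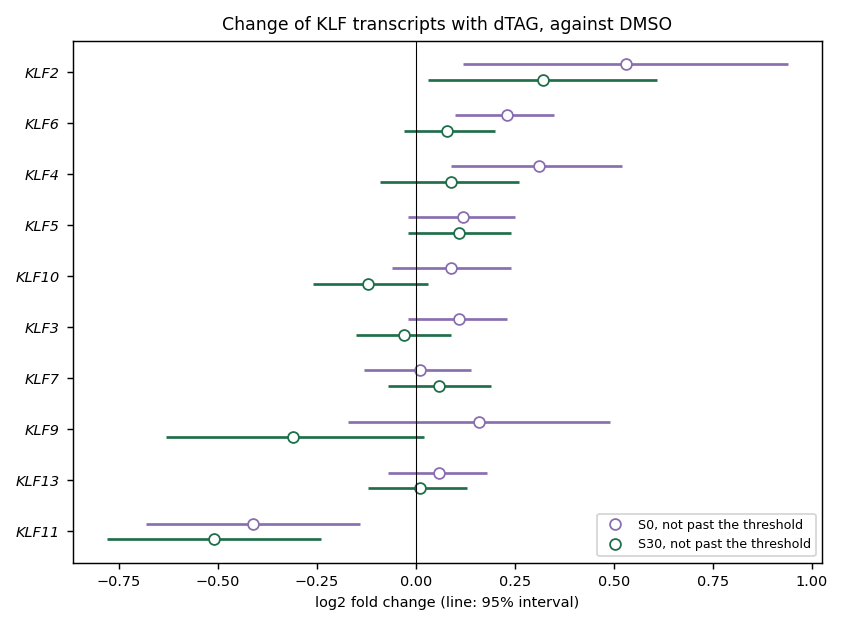
Log2 fold change with dTAG against DMSO (x axis) of the 10 KLF genes (y axis) without serum (S0) and with serum (S30), with 95% intervals as lines. All points are open, since none passed the adjusted threshold. At both serum levels KLF11 lies below 0 and KLF2 above 0 with the whole interval.

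Averaged over the 2 serum levels, a contrast chosen after the values had been seen, edgeR called 3 members, against 4.48% of all genes. KLF11 fell by 0.46 on the log2 scale (95% interval -0.65 to -0.27, adjusted p = 0.00247), KLF2 rose by 0.42 (0.18 to 0.67, adjusted p = 0.0369) and KLF6 by 0.16 (0.07 to 0.24, adjusted p = 0.0256). The call of KLF11 held in every alternative run. With library sizes taken from the ERCC transcripts neither KLF2 (0.44, adjusted p = 0.0521) nor KLF6 (0.17, adjusted p = 0.109) passed. Both calls were also lost when any 1 of DMSO-S0 replicate 2, DMSO-S30 replicate 2, DMSO-S30 replicate 3, dTAG-S0 replicate 1 or dTAG-S0 replicate 3 was left out, leaving 1 member called, and KLF2 lost its call without dTAG-S30 replicate 2.

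Levels between genes are set side by side per length, here as CPM per kb of the gene span over which the authors counted. The order rests on this length, which includes introns. Exons made up 65.7% of the span of KLF2, but 16.3% of that of KLF5 and 17.1% of that of KLF3. In DMSO-S0 the order was KLF10 (7.05 CPM per kb), KLF6 (6.39), KLF4 (2.27), KLF3 (1.91), KLF5 (1.72), KLF2 (1.05), KLF11 (1.0), KLF13 (0.617), KLF7 (0.427) and KLF9 (0.151). KLF2 and KLF11 were the one pair of neighbours whose libraries overlapped. In DMSO-S30 the order became KLF6 (28.5 CPM per kb), KLF10 (15.7), KLF4 (8.84), KLF2 (5.03), KLF5 (4.27), KLF3 (2.99), KLF11 (1.19), KLF13 (0.807), KLF7 (0.615) and KLF9 (0.208), with no overlap between neighbours. On this scale KLF2 thus passed KLF5 and KLF3, and KLF6 passed KLF10. Levels per exonic length were not compared.

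The order in dTAG-treated cells was that of DMSO-treated cells at the same serum level, but more neighbours overlapped. In dTAG-S0 the libraries of KLF10 and KLF6, of KLF3 and KLF5 and of KLF11 and KLF13 overlapped, and in dTAG-S30 those of KLF11 and KLF13. The summed level of the 10 members in DMSO-treated cells was 22.6 ± 0.826 CPM per kb without serum and 68.2 ± 3.09 with it (SD, n = 3 each). In dTAG-treated cells it was 25.1 ± 1.70 CPM per kb and 70.9 ± 3.15 (SD, n = 3 each). Of that sum, KLF6 made up 28.3% in DMSO-S0 and 41.9% in DMSO-S30, while KLF10 made up 31.3% and 23.0%. In dTAG-treated cells the share of KLF6 was 29.7% without and 42.9% with serum. These shares, like the order, rest on gene span as the length.

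**Figure D4:**
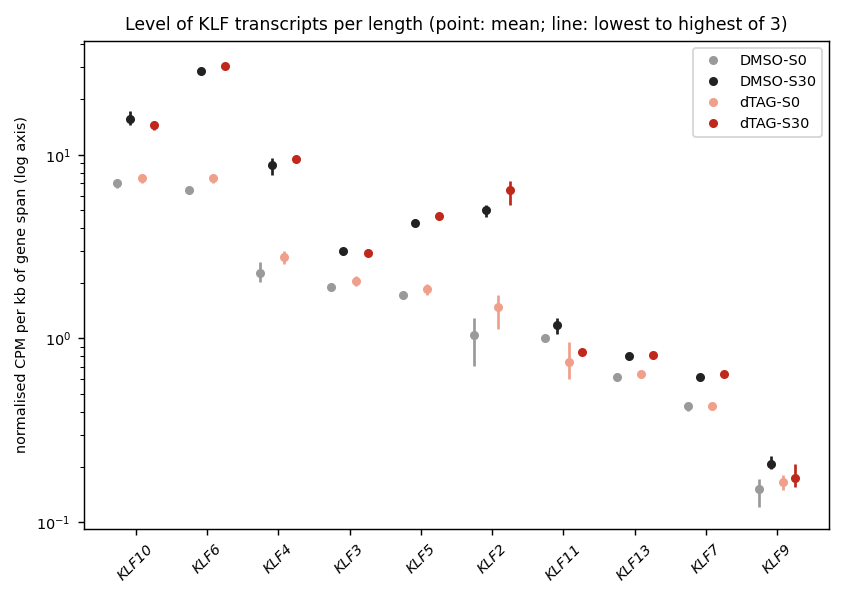
Level of each KLF gene in CPM per kb of gene span (y axis, log scale) in the 4 groups, with the mean as a point and the lowest to the highest of 3 libraries as a line. KLF10 and KLF6 lead in every group, KLF9 is lowest, and the S30 points of KLF2 stand above those of KLF5 and KLF3.

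Counts covered introns as well as exons, which weighs on long genes. The 4 members with spans under 10 kb, KLF2 (3.06 kb), KLF4 (5.63 kb), KLF10 (7.12 kb) and KLF6 (9.29 kb), had serum log2 fold changes from 1.16 to 2.30 in DMSO-treated cells. The 6 longer members, from KLF11 (12 kb) to KLF13 (109 kb), had values from 0.27 to 1.33. By GENCODE v44, exons made up 53.6% to 66.1% of the counted span in the 4 short genes, 38.3% in KLF11 and 8.65% to 17.2% in the others. The part of span in the serum effects was not tested. No other protein-coding gene overlapped a member, but an antisense lncRNA lies over part of KLF3 (KLF3-AS1), KLF4, KLF7 (MYOSLID) and KLF11, and use of strand in the counting is not given in the sources used here. On the same strand lie KLF7-IT1 (1161 bases) and MIR2355 in KLF7 and the processed pseudogene UBE2CP4 (535 bases) in KLF13, which use of strand would not separate.

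Of the 8 other KLF genes, 5 had enough counts, and only KLF16, a SIN3-binding repressor, passed edgeR's test. KLF16 rose with serum by 0.53 (adjusted p = 0.000158) in DMSO-treated and 0.46 (adjusted p = 0.000525) in dTAG-treated cells. Of all genes, 9.15% rose in DMSO-treated and 9.04% in dTAG-treated cells. In DMSO-treated cells KLF16 rose as much as the member KLF7 (0.53) and more than KLF9 (0.50). The members were chosen with earlier results of these data known, so setting the other KLF genes beside them is no test. Of the 9 SP genes, 7 were tested, and with the upper-quartile scaling used above edgeR's quasi-likelihood test called none in any comparison. Under TMM scaling it called 1 for serum in dTAG-treated cells. For serum in DMSO-treated cells 1 SP gene had an unadjusted p under 0.05, DESeq2 called 0 and the likelihood ratio test 1, and the median log2 fold change of the list was -0.06. SP1 and SP3, the widely expressed members that compete with KLFs for GC boxes, had serum log2 fold changes of -0.02 and -0.05.

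A further list held 11 genes of the pathways that act on KLF promoters (the SRF, TCF and MRTF factors and the MEK5, ERK5 and MEF2 cascade). Of these, 3 rose and 2 fell with serum in DMSO-treated cells, where 9.15% of all genes were called higher and 17% lower. SRF, the factor that binds CArG boxes, went from 31.8 ± 2.49 to 211 ± 16.8 CPM with serum in DMSO-treated cells (SD, n = 3 each), a log2 fold change of 2.73 (adjusted p = 1.11e-20), and rose by 2.53 in dTAG-treated cells. MEF2D, which binds MEF2 elements, rose by 1.69 in both treatments. The SRF partner ELK1 rose by 0.20 in DMSO-treated cells (adjusted p = 0.033), a call lost with ERCC library sizes (0.24, adjusted p = 0.0635). MAPK7, which encodes ERK5, fell by 0.41 and MAP2K5, which encodes MEK5, fell by 0.29, and neither passed under TMM scaling (-0.33, adjusted p = 0.0612 and -0.21, adjusted p = 0.0659). With dTAG averaged over serum, where 4.48% of all genes were called, ELK3 rose by 0.20 (adjusted p = 0.00506) and MEF2D fell by 0.22 (adjusted p = 0.011). The fall of MEF2D did not pass with ERCC library sizes (adjusted p = 0.211).

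Of 6 genes for ubiquitin ligase components that act on KLF proteins, 4 fell with serum in DMSO-treated cells, WWP1 by 0.26, SIAH1 by 0.21, BTRC by 0.20 and VHL by 0.18. That is beside 17% of all genes called lower. The median of all genes was -0.07, and under TMM scaling, where it is 0.00, WWP1 passed (-0.19, adjusted p = 0.0277) and the others did not. With ERCC library sizes none of the 6 passed (WWP1 -0.18, adjusted p = 0.177). In dTAG-treated cells, where 15.3% of all genes were called lower, WWP1 fell by 0.21 and SIAH1 by 0.20, and neither passed under TMM scaling. Of 11 cofactor genes, NCOR1, a nuclear receptor co-repressor, fell by 0.18 with serum in DMSO-treated cells (adjusted p = 0.0292), which did not pass under TMM scaling (-0.10, adjusted p = 0.229).

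Of 10 genes known as KLF targets, 8 were tested. With serum in DMSO-treated cells 2 rose and 1 fell, where 9.15% of all genes were called higher and 17% lower. PLAU, which encodes urokinase, rose by 2.31 (adjusted p = 4.30e-16), and CDKN1A, which encodes the cell cycle inhibitor p21, by 0.49 (adjusted p = 1.31e-06). TGFB1 fell by 0.26 (adjusted p = 0.0275), which did not pass under TMM scaling (-0.19, adjusted p = 0.122). In dTAG-treated cells PLAU rose by 1.95 and CDKN1A by 0.54, the 2 targets called there, where 9.04% of all genes rose. Under TMM scaling 4 of the 8 were called, and 3 each with ERCC library sizes and by DESeq2. PLAU was also higher in dTAG-S0 than in DMSO-S0, by 0.49 (adjusted p = 0.0159, and 0.0584 with ERCC library sizes), and averaged over serum PLAU rose by 0.31 while SMAD7, an inhibitor of TGF-beta signalling, fell by 0.29 (adjusted p = 0.154 with ERCC library sizes).

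**Figure D5:**
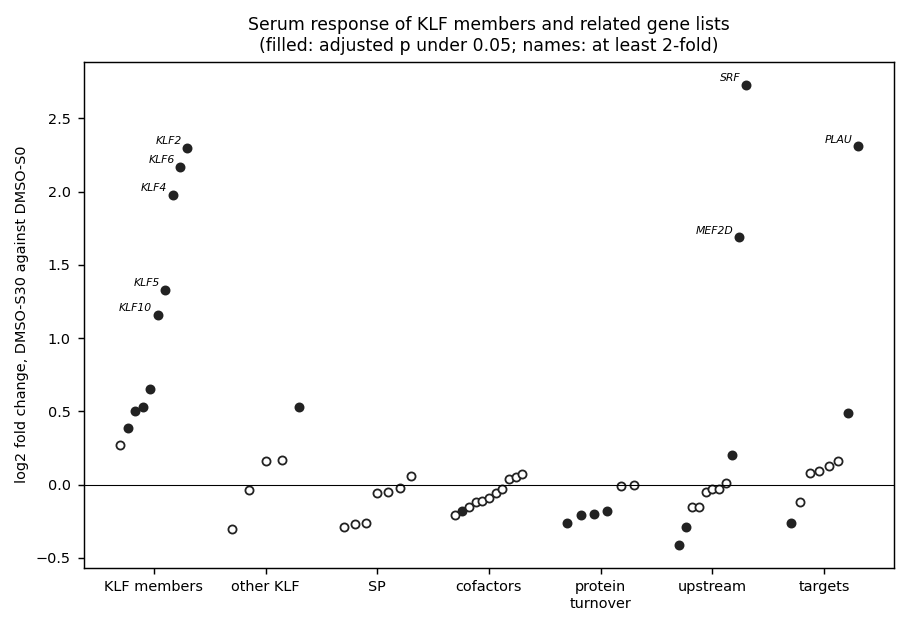
Log2 fold change between DMSO-S30 and DMSO-S0 (y axis) for the 10 KLF members and the tested genes of 6 related lists (x axis), each point a gene, filled for an adjusted p under 0.05 and named where the change is at least 2-fold. The members reach from 0.27 to 2.30, the 7 SP genes from -0.29 to 0.06, and SRF, MEF2D and PLAU are the named genes outside the members.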

How the data were processed

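RNA was depleted of ribosomal RNA and libraries were made with ERCC spike-ins (synthetic RNAs). Per the study's methods and the submitters' processing notes, the authors trimmed reads with Trim Galore 0.6.4, mapped them to hg38 with STAR and counted them with featureCounts (Subread 1.6.3) over whole protein-coding genes, introns included. The deposited table holds raw counts for each gene and ERCC transcript, not normalized. Counting introns adds unspliced RNA, and strand use and the handling of multi-mapping reads are not given in the sources used here. Columns were matched to samples by name, and S0 is the group whose column is marked SS.

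The test took genes with 10 or more counts in 6 or more libraries (13093, with 6808 left out). Counts were scaled by the upper quartile, 1 factor of unwanted variation was taken from the spike-ins (RUVg algorithm), and all 12 libraries were fitted together in edgeR 4.0.16 (R 4.3.3), with the two-sided quasi-likelihood F-test, Benjamini-Hochberg adjustment over all genes tested and calls at an adjusted p under 0.05. The standard error is the log2 fold change over the square root of F. The procedure was tested on simulated data. Positions are given from 1.

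All members were named, with TRIM28 and, from each gene list, the genes called, at most 5 a list and comparison by size of change. For the 2 members with the largest serum rise, the 3 genes nearest in pattern were named, except 1 that is not reported here, and SP1 and SP3 were named after their values were seen. The members and lists were chosen with earlier results of these data known. Alternatives were TMM scaling, ERCC library sizes, no or 2 spike-in factors, no or a stricter count filter, DESeq2 1.42.0, the likelihood ratio test, a fit of 2 groups, a replicate block and leaving out each library. The dTAG contrast averaged over serum and the MEF2 motif were added after seeing the data.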

Additional observations from a re-analysis of the deposited data

How the results depend on the processing

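The 9 serum calls in DMSO-treated cells and the 8 in dTAG-treated cells kept their direction in every alternative, with 9 to 10 and 8 members called among settings that keep all libraries, and KLF9 is the call lost when a library was left out (above). The direction of calls over all genes depended on scaling: 35.0% of the 3420 serum calls in DMSO-treated cells were rises, against 61.5% of 2749 under TMM scaling and 66.5% of 1766 with ERCC library sizes. In dTAG-treated cells these shares were 37.2%, 61.8% and 62.5%. Of the dTAG calls without serum 66.1% were rises, against 80.3% with ERCC library sizes (168 and 76 genes), and with serum 159 genes were called, against 66. Averaged over serum the values were 587 genes and 49.6%, against 258 and 65.5%.

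For dTAG without serum, 1 member was called in place of 0 without the count filter (KLF11, -0.50), with 10 counts in all 12 libraries, by DESeq2 and by the likelihood ratio test (KLF6, 0.23 in each), and 0 to 2 when a library was left out, with KLF2 (0.76) and KLF6 (0.26) both called without DMSO-S0 replicate 3, KLF6 alone (0.22 to 0.27) without DMSO-S30 replicate 1, dTAG-S0 replicate 2 or dTAG-S30 replicate 3, and KLF11 (-0.64) without dTAG-S0 replicate 3. For dTAG with serum, 1 member, KLF11 (-0.49 to -0.52), was called under TMM scaling, with no or 2 spike-in factors, with 10 counts in all 12 libraries, by DESeq2, by the likelihood ratio test and in the fit of 2 groups, and 2 without the count filter (KLF2 also, 0.33). Leaving out a library gave 0 to 1, with KLF11 called (-0.50 to -0.60) without 1 of the S0 libraries, DMSO-S30 replicate 1 or DMSO-S30 replicate 3. Averaged over serum, 1 member was called with ERCC library sizes and 1 to 4 when a library was left out, with KLF4 (0.23 to 0.25) called besides without DMSO-S0 replicate 1, DMSO-S30 replicate 1 or dTAG-S0 replicate 2, and (0.20) with 10 counts in all 12 libraries. The cause of these shifts was not tested.

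Signs turned only for values that did not pass in either fit. KLF7 without serum was -0.01 with 10 counts in all 12 libraries, and the interaction of KLF5 was 0.01 with that filter, with no spike-in factor and with no count filter. With a library left out the ranges that crossed 0 were -0.03 to 0.03 for KLF7 (dTAG without serum), -0.06 to 0.01 for KLF3, -0.04 to 0.15 for KLF4 and -0.02 to 0.05 for KLF13 (dTAG with serum), -0.11 to 0.24 for KLF9 (serum in dTAG), -0.48 to 0.03 for KLF2, -0.06 to 0.07 for KLF5 and -0.26 to 0.14 for KLF11 (interaction), and -0.04 to 0.01 for KLF10 (dTAG averaged over serum).

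Of the other genes named, some lost their call when 1 library was left out, in 12 fits each: for serum in DMSO-treated cells NCOR1 kept it in 11, BTRC in 10, SIAH1, ELK1, MAPK7 and TGFB1 in 9 and VHL in 8, SIAH1 in dTAG-treated cells in 9, PLAU for dTAG without serum in 9 and SMAD7 for dTAG averaged over serum in 10.

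Correlations of deviations from group means gave little sign that replicate numbers pair the samples. Of 18 pairs of libraries with one number in different groups, 1 had a correlation over 0.1 (range -0.153 to 0.139). The pair of dTAG-S0 replicate 2 and dTAG-S30 replicate 1, with unlike numbers, had 0.256. Of 12 libraries, 5 correlated best with a library of their own number. Whether libraries of one number were handled together was not tested. With the number as a replicate block, 9 and 8 members were called for serum, 0 for dTAG at either serum level and for the interaction, and 3 for dTAG averaged over serum. KLF2 and KLF9, with the fewest CPM without serum, had the largest standard errors for serum in DMSO-treated cells (0.18 and 0.16).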

Other observations

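Over the fitted log2 fold changes of serum in DMSO, serum in dTAG and dTAG without serum, 3 values for each gene tested, the genes nearest to KLF2 were PLAU (Euclidean distance 0.15), DUSP4 (0.34) and MUC13 (0.36). Their serum changes in DMSO-treated cells were 2.31, 2.34 and 1.94, and their dTAG changes without serum were 0.49, 0.20 and 0.56, where KLF2 had 2.30 and 0.53. MUC13 rested on a mean of 49 counts a library. Near KLF6 lay TBX18 (0.14) and TENT5B (0.16), with serum changes of 2.28 and 2.05 where KLF6 had 2.17. PLAU encodes urokinase, DUSP4 a phosphatase that acts on MAP kinases and MUC13 an epithelial mucin. The distances are a description, and 2 of the 3 comparisons share the DMSO-S0 libraries and 2 share the dTAG-S0 libraries.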
